A study of Mus musculus with 23 samples.

Results

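Distal H3K27ac sites that were kept through all 3 stages of early cortical neurons are described here. They are 1263 H3K27ac peaks of E11.5 Ebf2-EGFP+ cells, selected on 3 lists at once: each lay over 5 kb from the 5′ end of every protein-coding gene and overlapped, by at least 1 bp, a peak of the E13.5 and a peak of the E15.5 Ebf2-EGFP+ H3K27ac lists. They made up 5.24% of the 24102 distal peaks among the 37020 E11.5 peaks on chromosomes 1 to 19 and X. Of the other distal peaks, 5992 met an E13.5 peak only, 895 an E15.5 peak only and 15952 neither. In all, 30.1% of distal E11.5 peaks met an E13.5 peak and 8.95% an E15.5 peak. These counts follow from the rule and carry no test.

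The embryos carried the reporter transgene Tg(Ebf2-EGFP)FB58Gsat, in which EGFP follows the Ebf2 gene. Cortical cells were sorted as Ebf2-EGFP- at embryonic day E11.5 and as Ebf2-EGFP+ at that day, at E13.5 and at E15.5. ChIP-seq, which sequences the DNA bound to a marked histone, was done for H3K27ac and H3K27me3 in each. Per the study, preplate neurons make up most of the E11.5 Ebf2-EGFP+ cells, the E15.5 cells are mainly Cajal-Retzius (CR) neurons, and the Ebf2-EGFP- cells are mostly neural stem and progenitor cells. Each ChIP group had 2 libraries, apart from H3K27ac in Ebf2-EGFP- cells with 1, and each of the 8 groups had 1 peak list. The lists ran from 1386 peaks (H3K27ac, Ebf2-EGFP-) to 102881 peaks (H3K27ac, E13.5). The E11.5 Ebf2-EGFP+ H3K27ac list held 37055 peaks and the E15.5 list 25793. No list gave a height, a read count or a replicate, so depth is unknown and no test between stages or cell groups was possible. All shares below are descriptions, and their Wilson intervals cover counting error over peaks only.

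H3K27ac is written by the acetyltransferases p300 and CBP on nucleosomes that flank active enhancers and promoters. Enhancers away from genes tend to gain and lose this mark as a cell type matures, whereas promoters of broadly used genes tend to hold it. H3K27me3 sits on the same lysine, is written by the Polycomb complex PRC2 and marks silent genes, so a single histone tail cannot carry both marks. Promoters of mammalian genes often lie in CpG islands, stretches in which the CpG dinucleotide has not been lost.

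The members fell into distinct kinds of sequence, and 10 windows of 200 bp around E11.5 peak centres show them. They were read from the plus strand of GRCm38.p6, the assembly behind mm10, and CpG dinucleotides are in capitals. The windows inside Prkag2, Aff3, Lhx2 and Zic4 stand for the sites at or near further transcript starts. A start fell inside the Prkag2 and Lhx2 peaks, 116 bp from the Aff3 peak and 603 bp from the Zic4 peak. Those at Tbr1, Sox4 and Nes stand for unique sequence away from starts, the Sfi1 window was the single member found in all 8 lists, and the last pair, for which Sox5 (44945 bp off) and Atoh1 (152693 bp off) were the nearest protein-coding genes, lay in interspersed repeat sequence.
Prkag2 start, chr5:24908239-24908438: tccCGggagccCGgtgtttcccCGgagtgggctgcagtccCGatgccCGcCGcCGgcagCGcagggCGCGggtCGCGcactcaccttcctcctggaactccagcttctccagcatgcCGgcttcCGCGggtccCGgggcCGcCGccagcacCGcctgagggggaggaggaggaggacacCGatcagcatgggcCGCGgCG
Aff3 start, chr1:38627551-38627750: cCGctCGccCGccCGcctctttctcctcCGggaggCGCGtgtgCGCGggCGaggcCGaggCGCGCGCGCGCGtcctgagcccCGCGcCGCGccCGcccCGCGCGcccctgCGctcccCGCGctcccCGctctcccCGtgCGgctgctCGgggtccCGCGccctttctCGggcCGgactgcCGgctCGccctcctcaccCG
Lhx2 start, chr2:38351850-38352049: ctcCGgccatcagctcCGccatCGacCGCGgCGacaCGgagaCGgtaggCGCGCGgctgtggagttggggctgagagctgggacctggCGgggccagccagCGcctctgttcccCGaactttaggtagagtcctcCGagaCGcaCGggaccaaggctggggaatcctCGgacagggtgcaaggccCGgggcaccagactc
Zic4 start, chr9:91381536-91381735: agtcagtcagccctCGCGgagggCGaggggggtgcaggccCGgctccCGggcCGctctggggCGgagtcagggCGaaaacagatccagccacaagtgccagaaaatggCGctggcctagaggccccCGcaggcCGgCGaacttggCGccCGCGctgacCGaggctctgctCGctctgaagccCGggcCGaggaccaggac
Tbr1 exon, chr2:61811815-61812014: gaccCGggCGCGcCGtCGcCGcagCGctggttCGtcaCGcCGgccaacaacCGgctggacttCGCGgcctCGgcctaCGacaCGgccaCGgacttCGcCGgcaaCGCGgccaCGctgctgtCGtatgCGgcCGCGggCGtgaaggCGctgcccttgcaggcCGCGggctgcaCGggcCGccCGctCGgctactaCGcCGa
Sox4 flank, chr13:28959487-28959686: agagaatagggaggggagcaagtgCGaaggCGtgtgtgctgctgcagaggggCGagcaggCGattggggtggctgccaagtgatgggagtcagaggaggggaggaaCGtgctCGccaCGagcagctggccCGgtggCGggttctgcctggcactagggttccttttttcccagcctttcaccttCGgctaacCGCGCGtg
Nes exon, chr3:87978288-87978487: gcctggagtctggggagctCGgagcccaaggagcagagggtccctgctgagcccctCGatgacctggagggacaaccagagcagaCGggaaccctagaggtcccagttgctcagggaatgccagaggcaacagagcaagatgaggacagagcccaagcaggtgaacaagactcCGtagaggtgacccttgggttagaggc
Sfi1 intron, chr11:3168720-3168919: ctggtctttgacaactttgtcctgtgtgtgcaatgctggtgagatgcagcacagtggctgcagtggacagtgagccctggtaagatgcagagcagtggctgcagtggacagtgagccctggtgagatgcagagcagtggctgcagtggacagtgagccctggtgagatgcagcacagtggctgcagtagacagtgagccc
Sox5 distal, chr6:144826903-144827102: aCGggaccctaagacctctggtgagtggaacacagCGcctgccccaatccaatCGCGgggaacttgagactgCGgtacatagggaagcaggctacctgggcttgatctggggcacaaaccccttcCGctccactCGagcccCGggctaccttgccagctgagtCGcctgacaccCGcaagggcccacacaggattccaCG
Atoh1 distal, chr6:64881800-64881999: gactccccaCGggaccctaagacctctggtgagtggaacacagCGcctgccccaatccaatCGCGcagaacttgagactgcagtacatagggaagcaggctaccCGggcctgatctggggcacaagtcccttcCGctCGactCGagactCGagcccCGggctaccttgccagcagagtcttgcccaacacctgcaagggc

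The Aff3 window held 39 CpG dinucleotides and the Tbr1 window 36, while the Nes window held 4 and the Sfi1 window 0. The Sox5 and Atoh1 windows shared an identical run of 57 bases, although they lie 79945103 bp apart on chromosome 6. The median 31-base word of the Sox5 window occurred 410 times on chromosomes 1 to 19 and X, and that of the Atoh1 window 2819 times. The windows of Prkag2, Aff3, Lhx2, Zic4, Tbr1, Sox4, Nes and Sfi1 each had a median of 1 copy.

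The members were put into 3 kinds by measures that the rule did not use. A site was multi-copy where the median number of genomic copies of its 31-base words was at least 2. Copies outside the assembled chromosomes 1 to 19 and X were not counted, so a single-copy site need not be unique. Of the members, 543 were multi-copy, which is 43% (95% CI 40.3 to 45.7), against 19.3% of all distal E11.5 peaks and 9.56% of the peaks found at E11.5 only. A further 472 were single-copy and lay within 1 kb of the start of some annotated transcript, a share of 37.4% (95% CI 34.7 to 40.1) against 11% at E11.5 only. The remaining 248, or 19.6% (95% CI 17.5 to 21.9), were single-copy and away from starts, a kind that made up 79.4% of the E11.5-only peaks. The sites kept at E13.5 only shared the high multi-copy share (42%), and those kept at E15.5 only shared the high share near starts (41.8%). Read the other way, 14.6% of single-copy distal peaks near a start were kept at both stages, 11.7% of multi-copy peaks and 1.53% of the others. Among E11.5 peaks within 5 kb of a protein-coding gene's 5′ end, 36.2% (4679 of 12918) were kept at both.

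**Figure D1:**
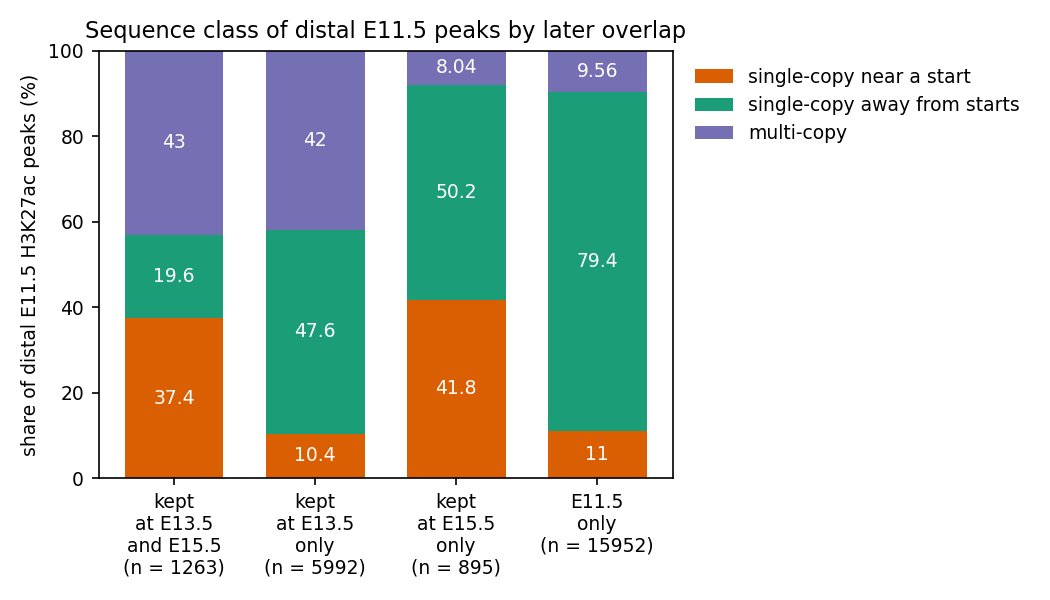
Stacked bars give the share (%) of distal E11.5 H3K27ac peaks in each of 3 sequence kinds, for 4 groups by overlap with the later lists. The kept sites hold 37.4% single-copy peaks near a start and 43% multi-copy peaks, while 79.4% of the E11.5-only peaks are single-copy and away from starts.

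Many members lay at further annotated starts, so the word distal holds for the 5′ ends of protein-coding genes only. Within 1 kb of a start of any annotated transcript lay 562 members, 44.5% (95% CI 41.8 to 47.3), against 15.3% of all distal peaks and 11.9% (95% CI 11.4 to 12.4) at E11.5 only. A start of a transcript labelled protein-coding fell inside the peak itself for 303 members (24%, 95% CI 21.7 to 26.4) and for 2.07% of the E11.5-only peaks. The nearest start class was a protein-coding gene for 389 members (30.8%), which are further starts of genes whose 5′ end is over 5 kb off and which touched 344 genes. A lncRNA gene came next for 78 members (6.18%, 59 genes), and another gene type for 95 (7.52%). With transcripts labelled protein-coding alone, the share within 1 kb of a start was 26.5% (95% CI 24.2 to 29) against 2.8% at E11.5 only. Peak centres fell in exons for 32.5% of members and 17.3% of E11.5-only peaks, in introns for 32.8% and 48.4%, and in intergenic sequence for 34.8% and 34.3%.

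The members that were widest at their narrowest stage include several such starts. At Prkag2, which encodes a regulatory subunit of AMP-activated protein kinase, the site at chr5:24907930-24908748 was 819 bp wide at E11.5, 803 bp at E13.5 and 945 bp at E15.5. Inside Cdk2ap1, a gene for a CDK2-associated protein, the widths were 1650, 747 and 1602 bp. Inside Fam19a5, which encodes a secreted protein of the brain, they were 758, 707 and 1459 bp. The Cdk2ap1 site was narrow at E13.5 alone, whereas the Fam19a5 site was widest at E15.5. The site in Aff3, a nuclear factor of the AF4 family, measured 669, 753 and 1565 bp, and that in Nol4l, whose nearest 5′ end was that of 4930404H24Rik, 675, 783 and 919 bp. These last sites widened at each step.

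The list of 10 also held sites of other kinds. By the narrowest of its 3 widths, the first was an intronic site of Gm21887 on chromosome X, of 1293, 1043 and 990 bp. A site at the lncRNA gene Gm26917 on chromosome 17, 105679 bp from Esp38, measured 974 bp at E11.5 and lay in peaks of 1855 and 1914 bp later. An intronic site near Cacnb4, which encodes a calcium channel subunit, measured 1894, 2556 and 880 bp and consisted of tandem copies with a median of 44 per word. A site in Sfi1, a centrosomal protein gene, held at 702, 746 and 706 bp. An intergenic site 83178 bp from Arhgap32, a GTPase-activating protein gene, measured 672, 1100 and 1169 bp and had a G and C content of 87.5%, the highest value among the members, which a site with Baz2b as its nearest gene also had.

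Of the 59 lncRNA genes with a member within 1 kb of a start, some were picked by name after their values were seen. Both neuronal and more general genes are among them. Mir124a-1hg, host of the neuronal miR-124, had a site of 553 bp at E11.5 over a start, in peaks of 590 and 921 bp later. A further member, of 439, 177 and 1325 bp, covered the Mir124a-1 gene itself. Mir9-3hg, host of the neural miR-9, had 2 sites over starts, of 1223 and 728 bp, and a further member of 1136 bp covered Mir9-3. In all, 8 members covered 9 miRNA genes of RefSeq, which is 0.633% of members and 0.083% of all distal peaks. These genes also included Mir3093 and those of miR-935 and miR-9768, and not all 9 are named here. Mirlet7i, a gene of the let-7 family that accumulates as cells differentiate, lay under a site of 598, 343 and 1353 bp. Mature sequences of 6 of the 9 genes were matched in RefSeq, and both arms of miR-9 and the 5p arm of let-7i are shown with the seed (bases 2 to 8) in capitals.
mmu-miR-9-5p: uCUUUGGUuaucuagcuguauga
mmu-miR-9-3p: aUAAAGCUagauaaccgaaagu
mmu-let-7i-5p: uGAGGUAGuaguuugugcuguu
Miat, a lncRNA of the nervous system, had 2 kept sites near its starts, both inside an E15.5 peak of 1809 bp. Dleu2, host of a miRNA pair, had 3, the widest of 537, 827 and 559 bp. Mir17hg, host of the growth-linked miR-17 cluster, had 1 of 1247, 417 and 2042 bp, and Snhg12, Snhg15 and Dancr had 1 each, between 236 and 292 bp wide at E11.5.

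Lists of genes of the cortical lineages were linked by the nearest 5′ end of a protein-coding gene, and 902 of 21728 genes (4.15%) were nearest to a member. The shares were higher in the 4 lineage lists, at 3 of 26 CR genes, 22.2% of preplate, subplate and deep-layer genes, 17.9% of proneural and neuronal factors and 9.09% of progenitor genes, each from a few genes. Under a link to any member within 100 kb, the ratio of each share to that of all genes was smaller. For progenitor genes the difference in percentage points was not. The same lists then had 19.2%, 27.8%, 14.3% and 18.2% in that order, against 12.2% of all genes. Among the CR genes, the window inside Zic4 that counts for Zic1, which encode zinc finger factors of CR cells and their sources, measured 343, 188 and 396 bp. Ppp2r2c, a phosphatase subunit gene, had an intronic site of 172, 276 and 456 bp. Brinp1 had 2, both multi-copy and intergenic, 455917 and 474917 bp away.

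Of 18 preplate, subplate and deep-layer genes, 4 had a member, and 3 of them are described. Tbr1, the T-box factor of early-born glutamatergic neurons, had an exonic site of 603, 606 and 1207 bp, 8684 bp from its 5′ end. Nfib had an intronic site of 236, 263 and 410 bp, and the Sox5 site was multi-copy. The Tbr1 and Nfib sites were both widest at E15.5.

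Of 28 proneural and neuronal transcription factors, 5 had a member. Sox4, which promotes neuronal maturation, had 2 sites 5082 and 5765 bp off, of 488 and 219 bp, that shared an E15.5 peak of 2152 bp, and a multi-copy site 301799 bp away. Mef2c, an activity-linked factor, had 2 sites 240884 and 228739 bp away, of 421 and 162 bp, the narrower one at a start of the lncRNA C130071C03Rik. Neurod2 had a site of 162, 240 and 536 bp, and St18 one of 144, 175 and 191 bp. The Atoh1 site was multi-copy. Of 22 progenitor genes, Lhx2 and Nes had members. Lhx2, a LIM homeodomain factor of cortical progenitors, had sites of 1265 and 447 bp at E11.5 that narrowed to 160 and 126 bp at E13.5 and measured 1223 and 281 bp at E15.5. Nes, the intermediate filament nestin of progenitors, had an exonic site of 212, 161 and 209 bp.

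Of the other lists, 6 of 23 neuronal RNA-binding protein genes (26.1%) had a member: Elavl2, Msi1, Msi2, Nova1, Khdrbs3 and Celf4, of which Nova1 and Khdrbs3 had multi-copy sites only. Elavl2, a neuronal Hu protein, had a site of 713, 187 and 363 bp at a further start, and Msi1, the Musashi protein of progenitors, one of 949, 379 and 969 bp. Axon growth and guidance genes counted 5 of 29, neuronal cytoskeleton genes 3 of 25 and synapse genes 2 of 28. For cells that a cortical sort could also hold, no interneuron, microglia, blood, meningeal or oligodendrocyte gene was nearest to a member (0 of 17, 10, 12, 12 and 8), lists so short that counts of 0 say little beside 4.15%, and of 12 endothelial genes Cdh5 was, 340345 bp from a multi-copy site. Eef1a1 was the 1 housekeeping gene of 12. With genes linked to any member within 100 kb, 2 of 10 microglia genes, 1 of 17 interneuron genes and 1 of 12 meningeal genes had one. So had 2 of 12 housekeeping genes, against 12.2% of all genes. The spacing of genes was not taken into account in these counts.

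The multi-copy members were concentrated in tandem arrays and in a few interspersed families. Their windows were repeat-masked over a median of 100% of bases and had a median of 50 copies, and 77.2% had 10 or more. Linking members over gaps up to the distance commonly used to stitch enhancers together gave 969 clusters, of which 870 held a single member, while the 5 largest held 162 members (12.8%). The next cluster held 13. The largest, 66 members over 144404 bp between Hrh1 and Atg7 at chr6:114492970-114637373, held no gene of GENCODE or RefSeq. The median copies of the words in each of its member windows ran from 29 to 58. The second, 37 members at chr8:123537423-123624248 near Gas8 and Rhou, spans 48 rRNA genes of RefSeq, 41 of them named as 5S, and 16 of its members overlapped an rRNA gene. The next 2 lay on chromosome 6 beside Ezh2 and Pdia4, with 21 and 20 members and medians of 15 and 16.5 copies. The fifth, 18 members over 46506 bp in Sfi1, stood apart with a median of 1 copy. With these arrays, chromosome 6 held 155 of the members against 1346 distal peaks in all, and chromosome 8 held 130 against 1571.

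By nearest gene, genes beside these arrays held most of the leading places. Atg7, an autophagy enzyme gene, was nearest to 52 members, Gas8 to 23, Ezh2, the PRC2 methyltransferase, to 21, Gpm6a and Pdia4 to 20 each and Sfi1 to 18. Gm21119, Hrh1 and Rhou followed with 14 each and Dynlt1b with 5. These 10 genes took 201 members. All were mostly multi-copy apart from Sfi1, with 1 multi-copy site of 18.

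Multi-copy windows that shared a 31-base word were then linked into 133 families, of which 85 were lone sites. The largest family, which included the Sox5 and Atoh1 windows, had 86 members on 20 chromosomes and a median of 2238 copies. Across all distal peaks, 876 windows shared a word with it, and 76.9% of those were kept at E13.5 only against 9.82% kept at both stages. Families of 54 members (median 682 copies) and 50 members (median 2250 copies) on 18 chromosomes each had 15.4% and 8.8% kept at both. The array between Hrh1 and Atg7 formed 1 family of 66 members, and 62.9% of the 105 windows that shared its words were kept at both stages. The 5S array family had 54.9% (28 of 51), and the family beside Ezh2 and Pdia4 had 20 of 20. The words came from members alone, all kept at both stages by the rule, so the kept shares of all families are partly set by the choice. Families cannot be compared by them. Within the cluster spans, members were 66 of 104 E11.5 peaks between Hrh1 and Atg7 and 37 of 91 in the 5S array. Beside Ezh2 and Pdia4 they were 21 of 27 and 20 of 22. Reads that fit several places were assigned to 1 of them in the study's alignment, so the position of a multi-copy peak within its family is uncertain.

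Peak width followed the kind of site. Over all members the median width was 304 bp at E11.5, with quartiles of 212 and 463 bp, against 184 bp at E11.5 only, 212 bp at E13.5 only and 233 bp at E15.5 only. The widest partner had a median of 350 bp at E13.5 and 376 bp at E15.5, and 581 members (46%) were widest at E15.5. Single-copy sites near a start were narrowest at E13.5, with medians of 385, 268 and 722 bp over the 3 stages. Multi-copy sites were widest at E13.5, with medians of 275, 543 and 302 bp. Single-copy sites away from starts changed little, at 255, 254 and 282 bp. A peak at E13.5 covered a median of 55.7% of the bases of the sites near a start and all the bases of the multi-copy sites, and E15.5 peaks covered 100% and 82.4%. Width depends on depth and on the caller, which could not be compared between lists, and width entered the choice of members through overlap.

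**Figure D2:**
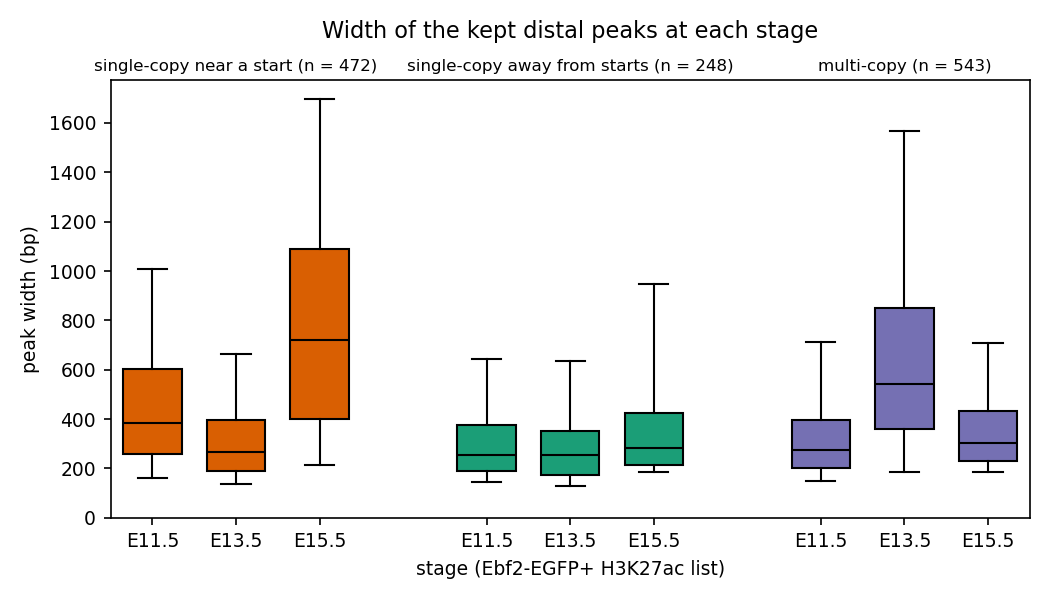
Boxes give the quartiles and median of peak width (bp) at each stage for the 3 kinds of kept distal site, with whiskers from the 5th to the 95th percentile; later widths are those of the widest overlapping peak. Sites near a start are widest at E15.5 (median 722 bp) and multi-copy sites at E13.5 (median 543 bp).

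The other 5 lists were not used by the rule. H3K27me3 of the E11.5 Ebf2-EGFP- cells overlapped 826 members, 65.4% (95% CI 62.7 to 68), against 19.8% of all distal peaks and 8.61% (95% CI 8.19 to 9.06) at E11.5 only. The share was 38.9% for sites kept at E13.5 only and 26.9% for those kept at E15.5 only. The Wilson intervals of these 4 groups did not overlap, but they treat each peak as independent, and 162 members lay in 5 clusters. Without those clusters the member share was 60.4%. It held in each kind: 56.6% of members near a start against 12.1% at E11.5 only, 40.3% against 7.29% away from starts, and 84.5% against 237 of 1525 in multi-copy sequence. It also held by width, at 59.6% against 7.95% for peaks under 300 bp and 70.9% against 15.4% for wider ones. Kept peaks near protein-coding 5′ ends had 62.2% (95% CI 60.8 to 63.6). The marks come from different sorted cells here, and the list of 48963 peaks was the largest of the H3K27me3 lists.

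The H3K27me3 lists of the Ebf2-EGFP+ cells were shorter, with 6387, 6721 and 1438 peaks in stage order, so their shares cannot be compared with that of the Ebf2-EGFP- list. The E11.5 list overlapped 10.6% (95% CI 9.03 to 12.4) of members, against 4.04% of all distal peaks and 2.61% at E11.5 only. The E13.5 list overlapped 135 members, or 10.7%, against 2.13% and 0.953%. The E15.5 list overlapped 2.53% (95% CI 1.8 to 3.55), against 0.249% and 0.125%. Multi-copy members led at E11.5 and E13.5, with 16.4% and 15.1%, against 4.24% and 8.05% near a start and 10.1% and 6.05% away from starts. The E15.5 shares of the 3 kinds lay between 2.39% and 2.75%, but a few places carried many of these calls. Of the 32 members that met the E15.5 list, 9 lay in the Sfi1 cluster, where 1 of 18 members was multi-copy. The single-copy members at Gm26917 and AY036118 described below met it too. Of the largest array, 65 of 66 members met the E11.5 Ebf2-EGFP- list, 16 the E11.5 Ebf2-EGFP+ list, 12 the E13.5 list and 0 the E15.5 list. Both marks were called at the same place in the same cells for some members, and whether they share molecules, copies or cells was not tested.

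H3K27ac of the E11.5 Ebf2-EGFP- cells, a list of 1386 peaks from 1 library, overlapped 73 members, 5.78% (95% CI 4.62 to 7.21), against 0.477% of all distal peaks and 0.113% at E11.5 only. Members near a start had 11% (95% CI 8.5 to 14.2), close to the 12.1% of kept peaks near protein-coding 5′ ends. Members away from starts had 3.63% and multi-copy members 2.21%. Wider members had more, 9.6% against 1.78% under 300 bp.

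**Figure D3:**
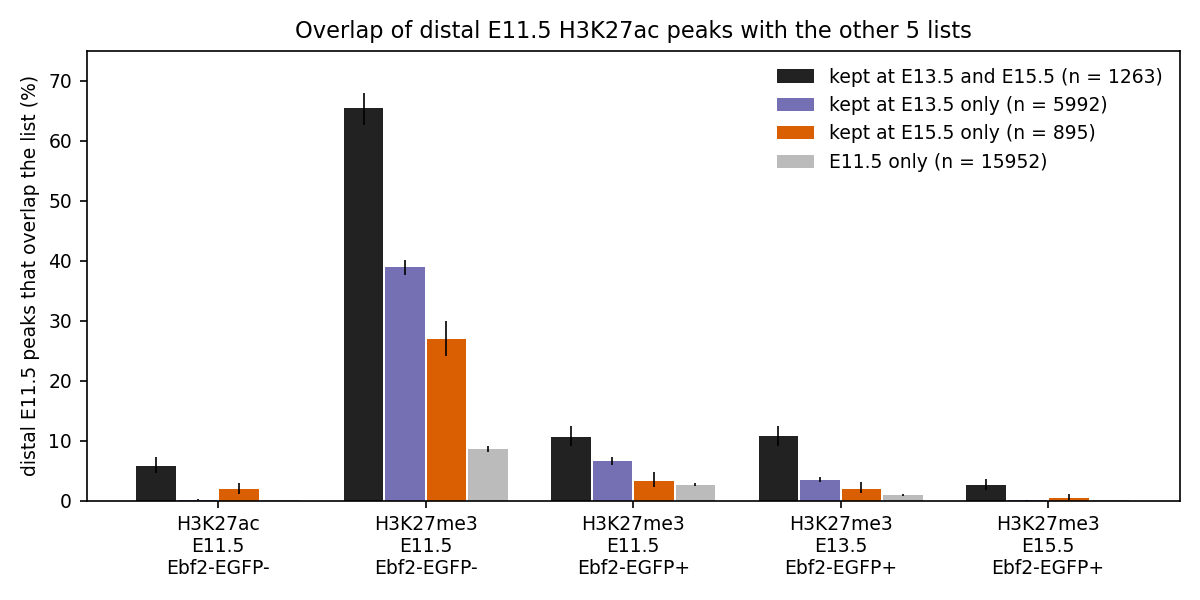
Bars give the share (%) of distal E11.5 H3K27ac peaks that overlap each of the 5 lists the rule did not use, for 4 groups by later overlap, with 95% Wilson intervals. The kept sites lead in each list, from 2.53% for H3K27me3 at E15.5 to 65.4% for H3K27me3 in E11.5 Ebf2-EGFP- cells.

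Over all 8 lists, 382 members were found in the 3 lists of the rule alone, 640 in 4, 183 in 5, 39 in 6 and 18 in 7. The H3K27me3 list of E11.5 Ebf2-EGFP- cells alone met 826 members. The same counts were not made over all distal E11.5 peaks, so they cannot be read as particular to the members. The single member in all 8 lay in an intron of Sfi1 at chr11:3168658-3168982, with widths of 325, 334 and 335 bp, and its 200 bp window held no CpG. Of the 18 in 7 lists, 5 lay in exons at the lncRNA genes Gm26917 and AY036118 on chromosome 17, between 416 and 974 bp wide, and all 5 missed only H3K27me3 of E11.5 Ebf2-EGFP+ cells. Each of the 5 had a median of 1 copy on the assembled chromosomes used, and whether more copies lie outside them was not tested. A further 2 lay in Sfi1 and 2 in introns of Gm15319, the latter with medians of 65.5 and 209 copies. One of the others lay in the 5S array near Rhou. The remaining 8 were spread over 8 genes, 7 of them multi-copy.

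The members were rich in G, C and CpG. Their windows had a median G and C content of 65%, against 54.5% at E11.5 only and 60% for either partial class, and a median CpG observed-over-expected ratio of 0.64 against 0.22. Sites near a start had 71% and 0.86, near the 72% and 0.9 of kept peaks at protein-coding 5′ ends, whereas E11.5-only peaks near a start had 56.5% and 0.27. Sites away from starts had 61.5% and 0.45, and multi-copy sites 63% and 0.57. A G and C content of at least 50% with a ratio of at least 0.6 was met by 55.6% (95% CI 52.8 to 58.3) of members and 4.76% of E11.5-only peaks, and by 80.7% of members near a start.

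**Figure D4:**
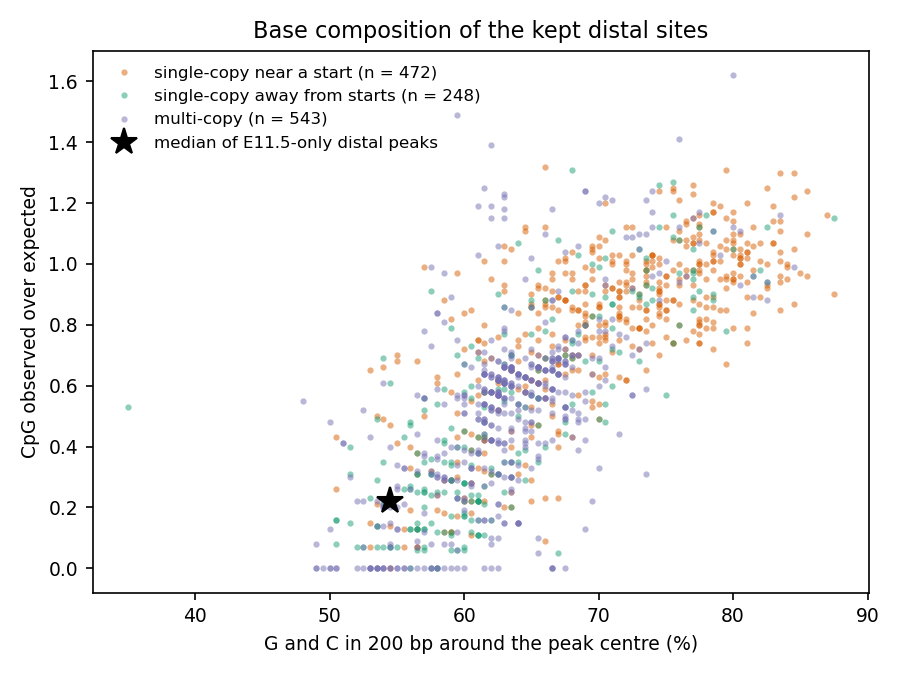
Each point is 1 of the 1263 kept distal sites, by G and C content (%) and CpG observed-over-expected ratio of its 200 bp window, coloured by kind; the star is the median of the E11.5-only peaks (54.5% and 0.22). Sites near a start gather at high values of both measures, around 71% and 0.86.

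Motifs were counted as plain letter matches on either strand, each motif for itself, and a match is no proof of binding. The GC box of SP and KLF factors (GGGCGG) was in 36.8% (95% CI 34.2 to 39.5) of member windows, against 5.94% at E11.5 only, 10.8% of all distal peaks and 1.96% of 200 bp windows tiled over the genome. By kind it was in 54% near a start, 26.2% away from starts and 26.7% in multi-copy sequence, and kept peaks at protein-coding 5′ ends had 58.4%. It is made of G and C, as the windows are. The palindrome bound by EBF factors (TCCCNNGGGA), the family of the reporter gene, was in 1.98% (95% CI 1.34 to 2.91) of members and 0.727% at E11.5 only, but 15 of its 25 members lay in the array between Hrh1 and Atg7. Among single-copy sites the shares were 0.972% (95% CI 0.472 to 1.99) and 0.769% (95% CI 0.639 to 0.926), whose intervals overlap. ETS (CCGGAAGT), NRF1 (GCGCATGC) and CRE (TGACGTCA) sites were in 0.633%, 0.95% and 0.396% of members, against 0.339%, 0.483% and 0.37% at E11.5 only. Tiled windows held them in 0.121%, 0.217% and 0.108%, and the EBF palindrome in 0.327%.

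Several motifs of lineage factors were less frequent over all members, with smaller gaps within some kinds. The E-box CAGATG, read by neuronal bHLH factors, was in 7.6% (95% CI 6.26 to 9.19) of members against 19.8% at E11.5 only, with 15% of tiled windows. Away from starts in single-copy sequence the shares were 16.9% (95% CI 12.8 to 22.1) and 20.5% (95% CI 19.8 to 21.2), whose intervals overlap. In the other kinds the gap stayed and the intervals lay apart. Near a start the shares were 4.87% (95% CI 3.27 to 7.21) and 18.3% (95% CI 16.6 to 20.2). In multi-copy sequence they were 5.71% (95% CI 4.05 to 7.99) and 15% (95% CI 13.3 to 16.9). The AP-1 site (TGANTCA with C or G at N) was in 0.792% (95% CI 0.431 to 1.45) against 3.5%, the homeodomain core TAATTA in 0.158% against 0.777%, and the SOX site ACAAAG in 7.92% against 11.7%. In tiled windows these 3 stood at 3.11%, 7.21% and 18%. TAATTA holds no G or C and ACAAAG holds few, while member windows were rich in both. Base composition was not taken into account in these shares. Away from starts in single-copy sequence, the intervals of members and E11.5-only peaks overlapped for all 3, at 2.42% against 3.79% for AP-1, 0 of 248 against 0.797% for TAATTA and 10.5% against 12.2% for SOX. Near a start the SOX shares were 10.4% and 10.3%, and in multi-copy sequence 4.6% and 8.98%, while AP-1 near a start stood at 0.847% against 3.25%. The ZIC site CAGCAGG was in 170 of the 1263 members and in 12.2% of the peaks at E11.5 only, a slightly lower share that lay inside the Wilson interval of the members, and in 3.99% of tiled windows. In all, 7 of the 22 motifs had a higher share in members than in E11.5-only peaks and 15 a lower one.

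**Figure D5:**
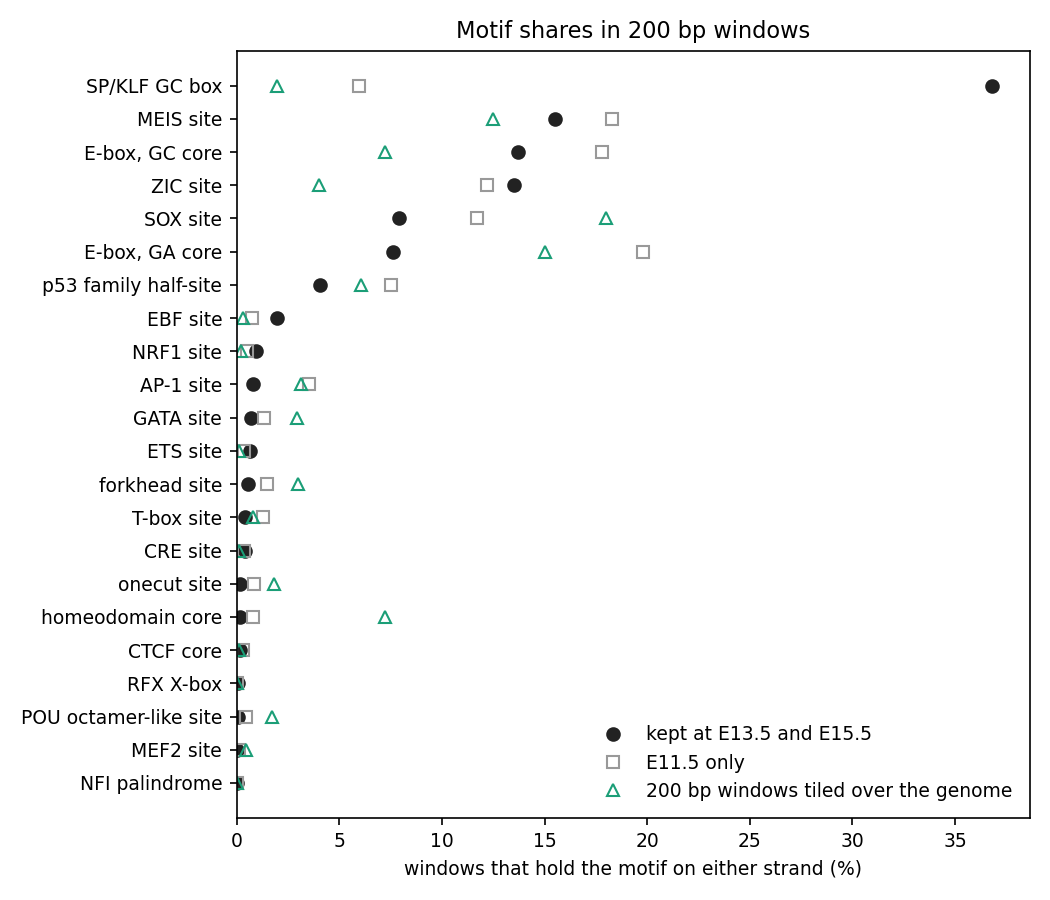
Symbols give the share (%) of 200 bp windows that hold each of 22 motifs on either strand, for kept distal sites, E11.5-only distal sites and windows tiled over the genome. The SP/KLF GC box stands at 36.8% in kept sites against 5.94% in E11.5-only sites, and the E-box with a GA core at 7.6% against 19.8%.

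At the 5 kb limit, the nearest members outside it lay 5023 bp from Phf11c, 5082 bp from Sox4 and 5090 bp from Pomc, with E11.5 widths of 142, 488 and 434 bp. The kept peaks just within the limit that are described lay 4989 bp from Lrrc14 and 4877 bp from Agap2, with widths of 367 and 156 bp. Members lay a median of 38935 bp from the nearest protein-coding 5′ end. Measured against every transcript start of protein-coding genes, 796 of them stayed over 5 kb away.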

How the data were processed

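Peak lists of H3K27ac and H3K27me3 ChIP-seq in sorted cortical cells were used as deposited. Per the study's methods and processing notes, the authors aligned reads to mm10 with Bowtie 1.1.2 with up to 3 mismatches, reporting 1 place for a read that fit several, and then ran MACS with a p limit of 1e-05. Its version, and whether replicates were pooled, are not given in the sources used here. The deposited score column held 0 throughout the 8 lists, so the authors' scores were not used. Widths and overlaps therefore carry no height, depth or replicate error.

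Peaks on chromosomes 1 to 19 and X were compared with GENCODE M21 (21755 protein-coding genes, 5′ end of gene) and RefSeq, on GRCm38. All peak ends lay within the GRCm38.p6 chromosomes. Starts in the lists count from 0, and positions are printed from 1. Overlap meant at least 1 bp. Sequence measures came from 200 bp around the E11.5 peak centre, and copies from counts of 31-base words on both strands of these chromosomes. Motifs were compared with 200 bp windows tiled over the genome. Python 3.11.15, pandas 2.3.3 and numba 0.67.0 were used, and overlap, distance, copy and motif code was tested on simulated data. Shares carry Wilson 95% intervals, for counting error only.

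Members, lists and kinds were chosen with earlier results of these data known. Named sites were the 10 largest by the narrowest width over the stages, the 10 genes nearest to most members, members of CR, preplate, proneural and progenitor genes, those in most lists, those nearest the 5 kb limit, and the 5 largest clusters. Others are stated where named, and a few named sites are not reported here. Alternatives covered overlap, distance, annotation, merging, width, chromosomes, window and gene link.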

Additional observations from a re-analysis of the deposited data

How the results depend on the processing

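No paired analysis was possible because each group had 1 peak list and no replicate columns, and for the same reason no replicate could be left out. Of 138 values recomputed, 80 stayed within 1.5 times (counts) or within the main 95% interval (shares and the median), 58 moved beyond it, and the cause was not tested. The main values were a count of 1263 and shares of 5.78% with H3K27ac in Ebf2-EGFP- cells, 65.4% with H3K27me3 in the same cells, 10.6%, 10.7% and 2.53% with that mark in the Ebf2-EGFP+ lists by stage, 44.5% near starts, 32.5% exonic, 32.8% intronic and 34.8% intergenic, with a median GC of 65%. The values that moved follow by setting. With a reciprocal overlap of at least 50%: count 386, at E11.5 in Ebf2-EGFP+ 16.6%, at E15.5 4.15%, near starts 35.8%, intronic 28.5%, intergenic 41.2% and median GC 63.5%. With the E11.5 centre inside both later peaks: count 828, H3K27me3 at E11.5 in Ebf2-EGFP- 70%, at E13.5 13%, near starts 40.9%, intronic 29.1% and intergenic 40.1%. Over 2 kb from the 5′ ends: near starts 47.5%, exonic 35.1% and intergenic 31.5%. Over 10 kb from them: near starts 40.8%, exonic 28.3% and intergenic 38.7%. Over 5 kb from every transcript start of protein-coding genes: count 796, H3K27ac in Ebf2-EGFP- 3.64%, H3K27me3 at E11.5 in Ebf2-EGFP- 71.2%, at E11.5 in Ebf2-EGFP+ 13.3%, near starts 20.6%, exonic 16.8%, intronic 28.3%, intergenic 54.9% and median GC 63%. Over 5 kb from the 5′ end of any annotated gene: H3K27ac in Ebf2-EGFP- 4.48%, near starts 31.4%, exonic 28.3%, intergenic 40.6% and median GC 63.5%. With peaks of at least 300 bp in all 3 lists: count 299, H3K27ac in Ebf2-EGFP- 13.4%, H3K27me3 at E11.5 in Ebf2-EGFP- 82.6%, at E11.5 in Ebf2-EGFP+ 17.7%, at E13.5 20.7%, at E15.5 5.35%, near starts 57.2%, exonic 38.5%, intronic 29.8%, intergenic 31.8% and median GC 68.5%. With single-copy members alone: count 720, H3K27ac in Ebf2-EGFP- 8.47%, H3K27me3 at E11.5 in Ebf2-EGFP- 51%, at E11.5 in Ebf2-EGFP+ 6.25%, at E13.5 7.36%, near starts 65.6%, exonic 51.5%, intergenic 13.6% and median GC 68%. Without the 5 largest clusters: H3K27me3 at E11.5 in Ebf2-EGFP- 60.4%, at E13.5 7.99%, exonic 36.2% and intergenic 30.2%. The last pair of settings was chosen after seeing the data. Anchored on the E13.5 or E15.5 list the count was 1312 or 1237, and merging peaks within 1 kb gave 1146. Leaving out chromosome X or E15.5 peaks over 10 kb moved no value beyond it. The 15 gene lists had 32 genes with a member, 46 with a 100 kb link and 23 over single-copy members. The 7 motifs with a higher share in members were 5 with 100 bp windows, and 4 among single-copy sites away from starts, also chosen after seeing the data.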
